A study of Mus musculus with 13 samples.

Results

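The shared regions of mouse chromosome 11 were the H3K27me3 regions on that chromosome that the authors listed as shared between both genotypes. There were 1430 of them, among 28174 shared and 57909 union regions in the count tables. They ran from chr11:3179044 to chr11:121832453 (mm10), were 292 to 128455 bp long with a median of 1993 bp, and 669 of them overlapped a deposited promoter row. Another 450 lay within a RefSeq gene, and 311 did neither. The cells were CAST/B6 male embryonic stem cells carrying a Rosa26-RMCE locus. DKO cells lacked both Safb and Safb2, the scaffold attachment factor B genes, whose proteins bind RNA and chromatin. WT cells kept both genes. Every culture, WT included, had received doxycycline for 3 days and was fixed with 0.6% formaldehyde.

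H3K27me3 was measured by ChIP-seq in 4 DKO and 5 WT libraries, and total H3 in 2 DKO and 2 WT libraries. DKO H3K27me3 replicate 1 came from clone 4, and the other 3 DKO H3K27me3 libraries and both DKO total H3 libraries came from clone 13. No total H3 library of clone 4 was analysed here. Among the WT H3K27me3 libraries, replicates 1, 4 and 5 carry rmce in their names, replicate 2 wt20 and replicate 3 wt44. DKO replicate 3 and WT replicate 4 are named Old, and DKO replicate 4 and WT replicate 5 New. The labels do not say that replicates were separate cultures, so the spread that the p-values rest on is that between libraries and may be technical in origin. With 3 of the 4 DKO H3K27me3 libraries and both DKO total H3 libraries from clone 13, the tests cannot tell a clone 13 difference from a genotype difference. Counts over all regions ranged from 1818647 to 3134799 per H3K27me3 library and from 525847 to 736566 per total H3 library. The shared regions of chromosome 11 held 125395 to 261534 and 37381 to 53054 of them. Of 7 pluripotency genes of embryonic stem cells, Nanog and Zfp42 had promoter H3K27me3 of 0 and 0 CPM in DKO and 0 and 0.294 CPM in WT (CPM on TMM-scaled library sizes). Pou5f1 and Sox2 had 4.22 and 6.95 CPM in DKO and 4.49 and 6.97 CPM in WT. Klf4, Esrrb and Tfcp2l1 had 87.1, 35.4 and 35.1 CPM in DKO and 97.7, 32.6 and 30.3 CPM in WT. The median over all single promoter rows was 6.09 CPM. Among markers of other cells, Gata6, Pax6, Neurod1 and Col1a1 had 215.7, 186.8, 120.1 and 112.5 CPM in DKO and 257.5, 208.4, 118.3 and 90.5 CPM in WT. Thy1, Sox17, Tubb3 and Col3a1 had 47.1, 16.6, 2.47 and 0.759 CPM in DKO and 53.1, 16.1, 1.92 and 0.692 CPM in WT. The Esrrb, Pax6, Thy1, Sox17 and Tubb3 values each cover more than 1 row. These promoters do not give a single answer on the labelled cell type.

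H3K27me3 is laid down by Polycomb repressive complex 2 and covers developmental genes that stem cells keep silent, often as broad domains over CpG-rich promoters. Total H3 counts nucleosomes whatever their modification, and so follows how much DNA of a region entered the library as well as how readily it was recovered. Chromosome 11 carries the Hoxb cluster, which patterns the body axis, and many other Polycomb targets, among them Lhx1, Neurod2, Tbx2, Otx1 and the genes of the chromobox proteins Cbx2 and Cbx8, which read H3K27me3 as part of Polycomb repressive complex 1.

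The promoters of Hoxb8, Neurod2, Grb10 and Lhx1 are printed because they lie in the 4 longest regions for which RefSeq gave a promoter, and because most of these long domains stood below the rest of the chromosome in the results that follow. Hoxb8 lies within the Hoxb domain, and its promoter is at chr11:96281655-96281954 on the plus strand. The promoters of Neurod2 (chr11:98329596-98329895), a neuronal transcription factor, Grb10 (chr11:12027922-12028221), an imprinted adaptor of insulin and growth factor receptors, and Lhx1 (chr11:84525485-84525784), a homeobox regulator of head and kidney formation, are on the minus strand. All are RefSeq sequences of build GRCm38.p6, 300 bases long, with the CG motif in capitals. CG reads the same on both strands.
Hoxb8: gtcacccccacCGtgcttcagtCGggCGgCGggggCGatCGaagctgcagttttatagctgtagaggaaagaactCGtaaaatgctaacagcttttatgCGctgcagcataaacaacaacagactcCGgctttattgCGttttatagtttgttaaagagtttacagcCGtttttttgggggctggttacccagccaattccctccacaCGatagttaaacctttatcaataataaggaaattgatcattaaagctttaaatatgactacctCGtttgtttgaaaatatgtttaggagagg
Neurod2: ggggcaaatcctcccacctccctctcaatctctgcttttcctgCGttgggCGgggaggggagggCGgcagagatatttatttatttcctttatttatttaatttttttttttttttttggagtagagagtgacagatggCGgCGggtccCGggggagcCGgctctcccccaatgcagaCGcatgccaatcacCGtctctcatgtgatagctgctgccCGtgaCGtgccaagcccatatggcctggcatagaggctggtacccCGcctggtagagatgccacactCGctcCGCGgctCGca
Grb10: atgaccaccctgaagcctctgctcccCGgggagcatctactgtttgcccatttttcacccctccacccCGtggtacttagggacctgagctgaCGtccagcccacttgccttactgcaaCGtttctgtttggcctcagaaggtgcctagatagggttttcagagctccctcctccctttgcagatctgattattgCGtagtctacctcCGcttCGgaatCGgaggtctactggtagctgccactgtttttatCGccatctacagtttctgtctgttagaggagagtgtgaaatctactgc
Lhx1: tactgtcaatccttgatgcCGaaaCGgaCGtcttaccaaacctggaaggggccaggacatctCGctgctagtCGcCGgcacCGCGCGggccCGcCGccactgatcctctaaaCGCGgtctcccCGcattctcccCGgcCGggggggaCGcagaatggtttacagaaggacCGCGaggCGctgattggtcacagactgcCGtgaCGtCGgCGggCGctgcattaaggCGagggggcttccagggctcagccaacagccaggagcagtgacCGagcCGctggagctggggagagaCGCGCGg
CG occurred 13 times in the Hoxb8 promoter, 16 times in that of Neurod2, 9 times in that of Grb10 and 31 times in that of Lhx1. The 395 RefSeq promoters in shared regions of chromosome 11 held a median of 17 CG, the other 1894 promoters of the chromosome 8, and all 32851 promoters 7. The motif was present in 100%, 95.7% and 94.6% of them.

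Over chromosome 11 as a whole, H3K27me3 was higher in the DKO libraries, of which 3 were of clone 13. Relative to the shared regions of other chromosomes, the shared regions of chromosome 11 held 11.9% in clone 4 and 14.1%, 13.8% and 13.9% in the clone 13 libraries, against 10.7%, 10.7%, 11.6%, 10.8% and 10.7% in WT replicates 1 to 5 (chromosomes 6, 11 and M left out of the denominator). All 4 DKO libraries lay above all 5 WT libraries. Clone 4 stood closer to WT replicate 3 than to any clone 13 library. The clone 13 libraries averaged 13.9% ± 0.149 (SD, n = 3), and the 4 WT libraries other than replicate 3 averaged 10.7% ± 0.0301 (SD, n = 4). The ratio to the WT mean was 1.28 for clone 13 and 1.10 for clone 4, and WT replicate 3 was 1.08 times the mean of the other 4 WT libraries.

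Total H3 moved by a like amount. Its share on the same denominator was 14.6% and 14.1% in the DKO libraries, against 11.3% and 11.5% in the WT libraries, a ratio of 1.26 for clone 13. As a share of all shared-region counts, H3K27me3 on chromosome 11 averaged 9.67% ± 0.644 in DKO (SD, n = 4) and 7.93% ± 0.300 in WT (SD, n = 5). Total H3 averaged 9.34% ± 0.206 in DKO and 7.54% ± 0.0643 in WT (SD, n = 2 each). The differences were 1.73 percentage points for H3K27me3 and 1.79 for total H3. They rest on unlike sets of clones, since both DKO total H3 libraries were of clone 13. The H3K27me3 mean includes clone 4, at 8.74%, and the clone 13 libraries had 10.2%, 9.90% and 9.81%. Whether the number of copies of chromosome 11 differed between the lines was not tested.

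The comparison held within each set of library names. DKO replicate 3 over WT replicate 4, both Old, gave a ratio of 1.28. DKO replicate 4 over WT replicate 5, both New, gave 1.29. DKO replicate 2 over the mean of WT replicates 1 to 3 gave 1.28. Clone 13 thus showed nearly the same ratio in each of the 3 sets, while clone 4 over the same 3 WT libraries gave 1.08.

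Read along the chromosome in 13 windows of 10 Mb, H3K27me3 was higher in DKO by an amount that varied between windows, and 11 of the 13 passed the test. Each region was placed by its midpoint, and windows are numbered from the centromere end. On the window counts divided by those of the other chromosomes, the DKO mean over the WT mean ranged from 1.15 to 1.32, with a median of 1.25. For clone 13 alone the ratio ranged from 1.19 to 1.38, and for clone 4 from 1.02 to 1.16. Every DKO library lay above the WT mean in 13 of 13 windows, and so did WT replicate 3, whose ratio was 1.03 to 1.12. DKO and WT libraries did not overlap in 9 windows. In windows 2, 3, 10 and 13 clone 4 lay below the highest WT library, and clone 13 lay above every WT library in all 13 windows.

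**Figure D1:**
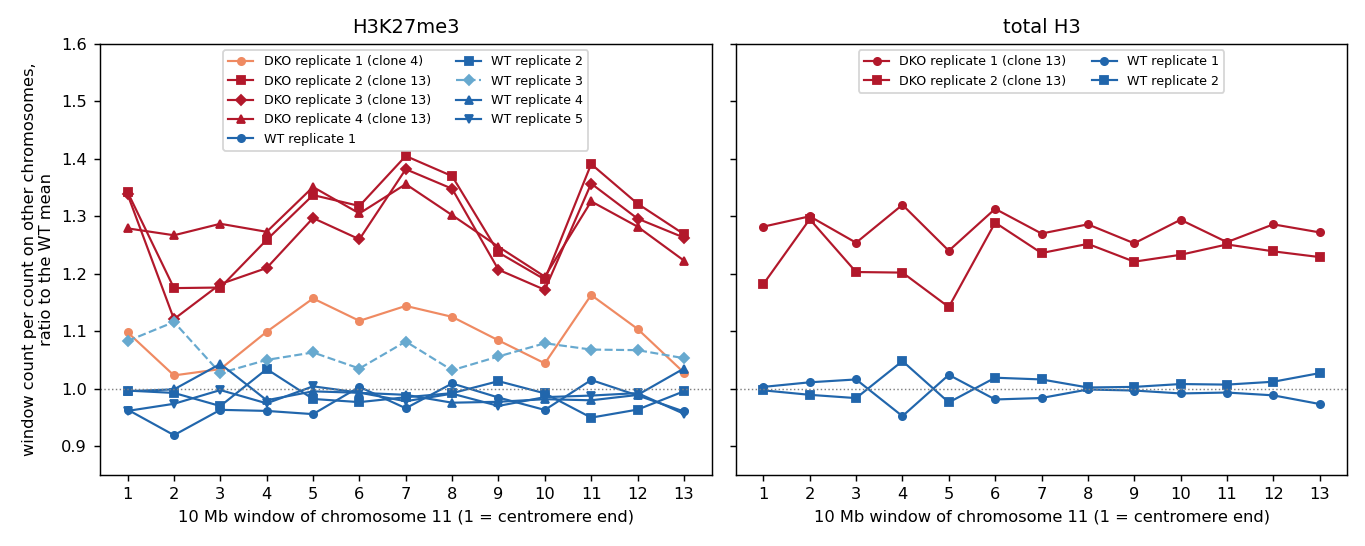
Ratio of each library's window count, per count on other chromosomes, to the WT mean (y axis) in the 13 windows of chromosome 11 (x axis), with H3K27me3 on the left and total H3 on the right. The clone 13 lines run above all WT lines, clone 4 runs between 1.02 and 1.16, and the DKO total H3 lines run between 1.14 and 1.32.

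The fit over all windows of the genome (edgeR quasi-likelihood test, TMM scaling) called H3K27me3 higher in 11 of the 13 windows, at an adjusted p under 0.05. The background was 4.06% of 271 windows, and none of the 258 windows on other chromosomes was called higher. Calls of a lower count made up 39.9% of all windows, none of them on chromosome 11. The median log2 fold change was 0.21 over the windows of chromosome 11 and -0.11 over the other windows, a distance of 0.32. The shift of the other windows moved with the scaling, to -0.04 with plain library totals and -0.16 with TMM taken off chromosomes 6 and 11, and the distance was 0.32 under both.

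Window 7, at 60 to 70 Mb, had the highest value, with a log2 fold change of 0.29 ± 0.06 (SE, adjusted p = 1.02e-05). Its 142 regions held 0.971%, 1.19%, 1.17% and 1.15% of the counts on other chromosomes in DKO replicates 1 to 4, against 0.820%, 0.836%, 0.918%, 0.840% and 0.830% in WT replicates 1 to 5. Clone 4 was the lowest DKO library and WT replicate 3 the highest WT library, and the groups did not overlap. Window 11 followed at 0.28 ± 0.06 (adjusted p = 6.75e-05), then window 5 at 0.25 ± 0.05 (adjusted p = 2.57e-05), window 8 at 0.25 ± 0.06 (adjusted p = 0.000249), window 1 at 0.23 ± 0.05 (adjusted p = 0.000155), and windows 6 and 12 at 0.21 (adjusted p = 0.00134 and 0.00433). These 7 windows lay in several separate parts of the chromosome. Windows 4, 13, 9 and 3 were lower, at 0.17, 0.15, 0.15 and 0.12 (adjusted p = 0.00543, 0.0143, 0.0327 and 0.0455).

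Windows 2 and 10 were not called in the main comparison. These calls depended on the scaling, since all 13 windows were called with plain library totals and 9 with TMM off chromosomes 6 and 11. Window 2, at 10 to 20 Mb with 23 regions, had a log2 fold change of 0.09 ± 0.05 (adjusted p = 0.12). It held 0.342%, 0.393%, 0.375% and 0.424% of the counts on other chromosomes in DKO replicates 1 to 4, against 0.307%, 0.332%, 0.373%, 0.334% and 0.326% in WT replicates 1 to 5. Clone 4 lay below WT replicate 3 there, and the clone 13 libraries lay above it. Window 10, at 90 to 100 Mb with 214 regions, had 0.09 ± 0.07 (adjusted p = 0.217). It held 2.64%, 3.01%, 2.96% and 3.02% in DKO replicates 1 to 4, against 2.43%, 2.51%, 2.73%, 2.48% and 2.49% in WT replicates 1 to 5, and again only clone 4 lay within the WT range. Window 10 contains the Hoxb domain, which made up 29.1% ± 1.25 of its H3K27me3 count in DKO (SD, n = 4) and 31.9% ± 0.773 in WT (SD, n = 5). With the strongest 1% of regions left out, window 10 had a log2 fold change of 0.20 and was called (adjusted p = 0.0371), and window 2 had 0.15 (adjusted p = 0.0464).

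The calls of windows 1, 5, 6, 7, 8 and 11 held without each of the 9 libraries in turn. Those of windows 3, 4, 9, 12 and 13 were lost without at least 1 library, and without DKO replicate 2 the number of called windows was 6. Within the libraries named neither Old nor New, where clone 4 is 1 of the DKO libraries, no window was called and the log2 fold changes ran in the same direction. With windows of 5 Mb, 20 of 25 were called higher, with log2 fold changes of 0.08 to 0.37. Each DKO library lay above the WT mean in all 25 of these, with ratios of 1.00 to 1.30 in clone 4.

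Total H3 rose in 13 of 13 windows, against a background of 4.81% of 270 windows (2.96% were called lower), and in none of the 257 windows on other chromosomes. The log2 fold changes ran from 0.22 in window 5 to 0.35 in window 6. Their median was 0.29 over chromosome 11 and -0.03 over the other windows, a distance of 0.32. Both DKO total H3 libraries were of clone 13. The H3K27me3 distance was 0.32 with clone 4 included and 0.38 with clone 13 as the only DKO clone. Windows 2 and 10, the lowest for H3K27me3, had total H3 values of 0.35 ± 0.05 and 0.31 ± 0.02. Window 2 held 0.306% and 0.305% of the total H3 counts of other chromosomes in the DKO libraries, against 0.238% and 0.233% in the WT libraries. Window 10 held 2.64% and 2.52% in the DKO libraries, against 2.02% and 2.06% in the WT libraries. The DKO and WT total H3 libraries did not overlap in any window. Without WT replicate 2 of total H3, 9 windows were called, those of windows 1, 3, 4 and 5 being lost.

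**Figure D2:**
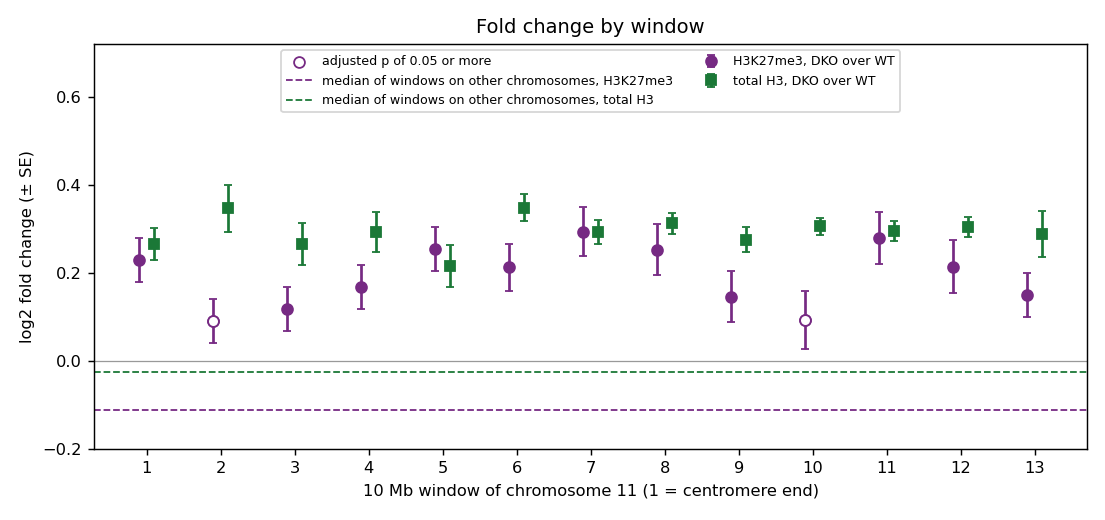
Log2 fold change of DKO over WT (y axis, points with SE) for H3K27me3 and total H3 in each 10 Mb window of chromosome 11 (x axis). Dashed lines mark the median over windows of other chromosomes. Total H3 stays between 0.22 and 0.35, and H3K27me3 ranges from 0.09 in windows 2 and 10 to 0.29 in window 7.

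Evenness was tested by setting each window against the rest of its own chromosome. Total H3 departed in 0 of 13 windows of chromosome 11 by edgeR, with 0 at an unadjusted p under 0.05 and log2 values of -0.08 to 0.05. The background was 0.741% of windows called higher and 0.37% called lower. In window 5 the total H3 value was -0.08 ± 0.05 (SE), larger in size than the H3K27me3 departure called there, 0.06 ± 0.02. With 2 libraries a group, the total H3 test could thus miss a departure of that size. H3K27me3 departed in 6 windows. Windows 7, 11, 8 and 5 stood above the rest of the chromosome, by 0.11, 0.10, 0.07 and 0.06 on the log2 scale, and windows 2 and 10 stood below it, at -0.10 and -0.12. Such departures were common elsewhere too, since 15.5% of all windows were called higher and 10.7% lower in this test. Windows 7, 10 and 11 kept their calls without each library in turn, and windows 2, 5 and 8 lost theirs without at least 1. Without the strongest 1% of regions, 3 windows were called, windows 7 and 10 among them, while window 11 fell to 0.03 (adjusted p = 0.417).

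No window was called for a change of H3K27me3 beyond that of total H3. In the edgeR fit of both antibodies together, the difference between the antibodies' log2 fold changes ran from -0.27 to 0.02, and 2 windows had an unadjusted p under 0.05. The background was 0% of windows higher and 0.369% lower. These were window 2, at -0.27 ± 0.10 (unadjusted p = 0.00531, adjusted p = 0.272), and window 10, at -0.23 ± 0.10 (unadjusted p = 0.0287, adjusted p = 0.494). Window 2 was called without WT H3K27me3 replicate 1 (adjusted p = 0.0238). Both windows lay below 0, meaning that in this fit H3K27me3 had risen less than total H3. Values below 0 were common elsewhere too. The median difference was -0.096 over the 258 windows of other chromosomes, with a range of -0.954 to 0.264. It was -0.144 over the windows of chromosome 11. The H3K27me3 side also included DKO replicate 1, from a clone without a total H3 library here.

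Region by region, 1416 of the 1430 regions passed the filter on low counts for H3K27me3. Of these, 245 rose and 5 fell in DKO, or 17.3% and 0.353%. The background over all 39373 tested regions was 1.88% higher and 2.04% lower, and over the shared regions outside chromosomes 6, 11 and M it was 0.631% higher and 2.61% lower. The median log2 fold change was 0.28 over the shared regions of chromosome 11 and -0.02 over the other shared regions. The interquartile ranges were 0.26 and 0.30, so the distribution was displaced and not widened. Values above 0 were found in 1277 of the 1416 regions, or 90.2%, and in 46.5% of the other shared regions. In 206 regions every DKO library lay above every WT library, 14.6% against a background of 3%. The count of rises ranged from 88 without DKO replicate 2 to 399 without WT replicate 1, whereas the distance between these medians ranged from 0.24 to 0.36 over all alternatives.

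Total H3 was tested in 1196 of the regions. Its median log2 fold change was 0.31 on chromosome 11 and -0.02 over the other shared regions, and 84.7% of values were above 0. In all, 1 region was called higher, against a background of 0.00528%, none was called lower, against 0.0158%, and 240 regions had an unadjusted p under 0.05. In 589 regions both DKO libraries lay above both WT libraries, 49.2% against a background of 16.8%. The test of H3K27me3 beyond total H3 called 0 of 1429 regions by edgeR, with 86 at an unadjusted p under 0.05, against a background of 0% higher and 0.00196% lower. Its median was -0.05. Chromosome 11 stood apart from the other 19 chromosomes for both antibodies, since their medians over shared regions lay between -0.16 and 0.01 for H3K27me3 and between -0.06 and 0.01 for total H3.

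**Figure D3:**
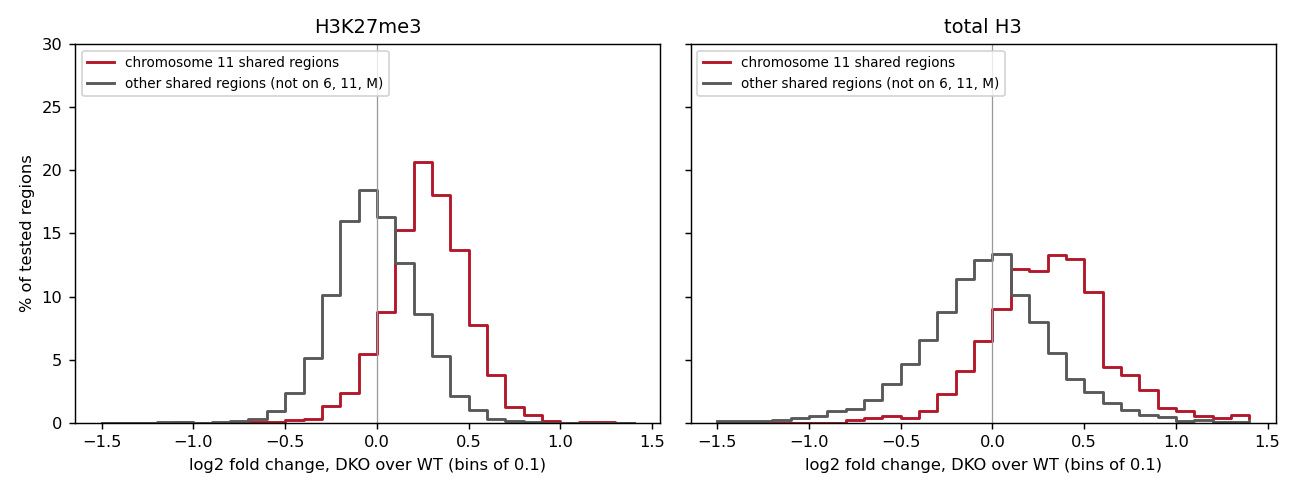
Share of tested regions (y axis, %) by log2 fold change of DKO over WT (x axis, bins of 0.1) for the shared regions of chromosome 11 and for shared regions of other chromosomes. For both antibodies the chromosome 11 curve is displaced to the right, with medians of 0.28 for H3K27me3 and 0.31 for total H3.

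The shift reached most regions in each clone 13 library. DKO replicates 2, 3 and 4 lay above the WT mean in 92.0%, 93.9% and 90.7% of the 1416 regions, and clone 4 in 75.4% of them. WT replicates 1 to 5 lay above that mean in 48.7%, 43.2%, 67.2%, 42.4% and 41.7%. The median ratio to the WT mean was 1.12 in clone 4 and 1.38, 1.37 and 1.31 in clone 13, and it was 1.06 in WT replicate 3. By its median over single regions, clone 4 thus lay between clone 13 and the WT mean, as it did over whole windows. In windows 2, 3, 10 and 13 it lay within the WT range. In total H3 the 2 DKO libraries lay above the WT mean in 82.4% and 81.5% of 1196 regions.

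Called regions reached from one end of the chromosome to the other. The first was at the promoter of Inpp5j (chr11:3501239-3504031), an inositol polyphosphate phosphatase gene. It had 28.4, 34.3, 31.5 and 31.1 CPM in DKO replicates 1 to 4, against 24.4, 14.01, 20.1, 17.0 and 21.5 CPM in WT replicates 1 to 5 (log2 fold change 0.67 ± 0.16, adjusted p = 0.00324). The last was at Metrnl (chr11:121700200-121705360), which encodes a secreted protein, with 138 ± 11.1 CPM in DKO and 110 ± 13.4 CPM in WT (SD, n = 4 and 5, log2 fold change 0.32 ± 0.09, adjusted p = 0.0229). The Metrnl call was lost without any 1 of 5 libraries, and the Inpp5j call held without each. The longest stretch with no called rise was 11741603 bp, from position 9152089 to position 20893690, and so covered window 2. It held 35 regions, of which 34 were tested and 30 had values above 0, with a median log2 fold change of 0.26. Among the windows, the share of regions called higher ran from 0% to 24.5%, while the median log2 fold change of the regions ran only from 0.21 to 0.33.

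The log2 fold change differed between length classes, and the classes were not tested against each other. The median log2 fold change was 0.16 over the 40 regions of 10 kb or more, 0.25 over the 196 regions of 5 to 10 kb, 0.32 over the 928 regions of 1 to 5 kb and 0.17 over the 252 tested regions under 1 kb. The other shared regions gave -0.20, -0.09, 0.01 and -0.03 in the same classes. On chromosome 11 both the longest and the shortest regions thus lay below those between, and 15.0% of the longest but 0.794% of the shortest were called higher. Of the 416 other shared regions of 10 kb or more, 1 was called higher and 193 lower. Total H3 medians on chromosome 11 were 0.30, 0.29, 0.32 and 0.28. In each length class the chromosome 11 median was thus above that of the other regions for both antibodies. In the 40 longest regions the median ratio to the WT mean was 1.07 in clone 4 and 1.22, 1.21 and 1.24 in clone 13. Regions with and without a promoter row were close, at 0.27 and 0.29.

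**Figure D4:**
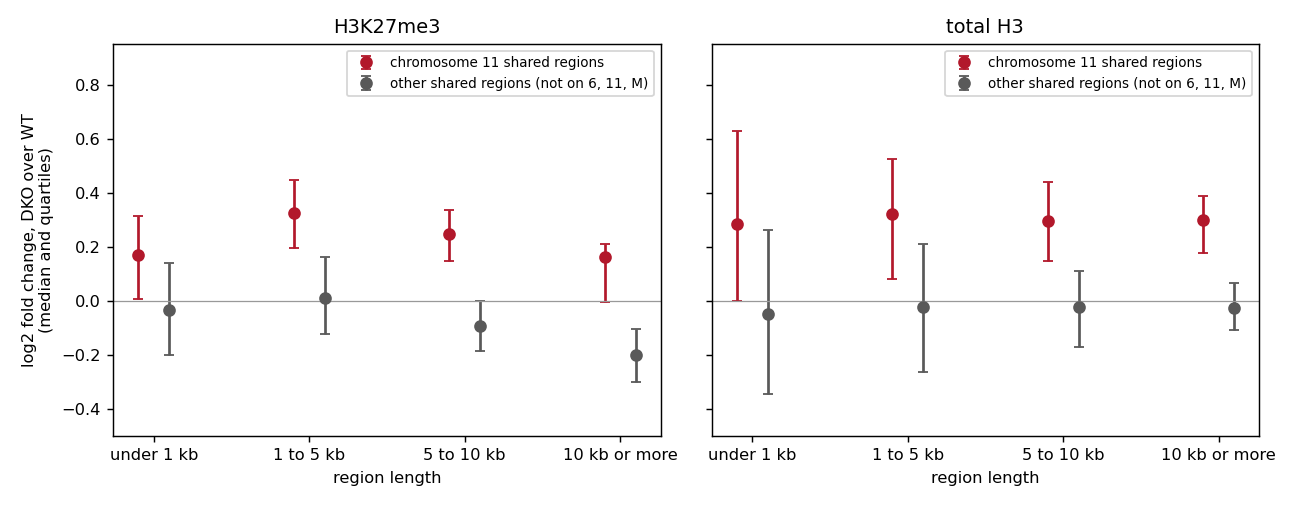
Median log2 fold change of DKO over WT (y axis, with quartiles) by region length (x axis) for H3K27me3 on the left and total H3 on the right. For H3K27me3 the chromosome 11 medians run from 0.16 to 0.32 and follow the other shared regions at a distance, and for total H3 they stay between 0.28 and 0.32.

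The longest region of each window showed how far single domains varied. The largest was the Hoxb domain (chr11:96249272-96377726), which spans Hoxb1 to Hoxb9. It had 4992, 5289, 4965 and 5455 CPM in DKO replicates 1 to 4, against 5398, 5217, 5730, 5106 and 5142 CPM in WT replicates 1 to 5. The groups overlapped, and the log2 fold change was -0.04 ± 0.04 (adjusted p = 0.615), turning to 0.034 with library totals. Total H3 over the same domain was 1953 and 1839 CPM in DKO, against 1524 and 1559 CPM in WT, with no overlap (log2 fold change 0.30 ± 0.07, adjusted p = 0.141). Set against the rest of the chromosome, H3K27me3 of the domain stood at -0.24 ± 0.04 (adjusted p = 8.16e-06).

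The long regions at Lhx1, Tbx2 and Tlx3 behaved in the same way. Lhx1 (chr11:84514136-84534716) averaged 788 ± 58.1 CPM in DKO and 826 ± 34.6 CPM in WT, a log2 fold change of -0.07, or 0.0062 with library totals. Tbx2 (chr11:85824740-85849095), a T-box repressor gene, averaged 927 ± 43.8 CPM in DKO and 954 ± 39.6 CPM in WT, a log2 fold change of -0.04, or 0.034 with library totals. Tlx3 (chr11:33190994-33208079), a homeobox gene of sensory neurons, averaged 594 ± 42.9 CPM in DKO and 601 ± 31.9 CPM in WT, at -0.02, or 0.057 with library totals (SD, n = 4 and 5 throughout). None of these 3 passed the test in the main comparison, and all stood below the rest of the chromosome, at -0.26, -0.23 and -0.21 (adjusted p = 0.00036, 0.00141 and 0.00982). The Tlx3 call was lost without DKO replicate 3. Cbx8 (chr11:119041179-119064001) averaged 1136 ± 58.3 CPM in DKO and 1109 ± 47.1 CPM in WT, at 0.03, or -0.018 with TMM off chromosomes 6 and 11.

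Other long regions had higher values. The region at Gm23219 (chr11:78802212-78822390), a predicted gene, had 284, 327, 357 and 307 CPM in DKO replicates 1 to 4, against 244, 226, 234, 213 and 212 CPM in WT replicates 1 to 5. Every DKO library lay above every WT library, and the region rose by 0.50 ± 0.07 on the log2 scale (adjusted p = 5.31e-08). The region within Wnt3 (chr11:103790322-103816962), a Wnt ligand gene needed for gastrulation, had 544, 649, 573 and 586 CPM in DKO replicates 1 to 4, against 474, 436, 506, 429 and 459 CPM in WT replicates 1 to 5. It rose by 0.35 ± 0.06 (adjusted p = 2.17e-05). The longest regions of the remaining windows were not called. Their log2 fold changes were 0.21 at Gas2l1, 0.10 at Grb10, 0.24 at Ebf1, 0.18 at Shroom1, 0.16 at Hes7 and 0.14 at Bahcc1, with adjusted p of 0.0834, 0.348, 0.0505, 0.0712, 0.153 and 0.339. At Ebf1 and Hes7 every DKO library nonetheless lay above every WT library, with 203 to 241 and 394 to 436 CPM in DKO, against 180 to 202 and 349 to 392 CPM in WT. Otx1, the longest of window 3, fell and is described with the other falls.

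**Figure D5:**
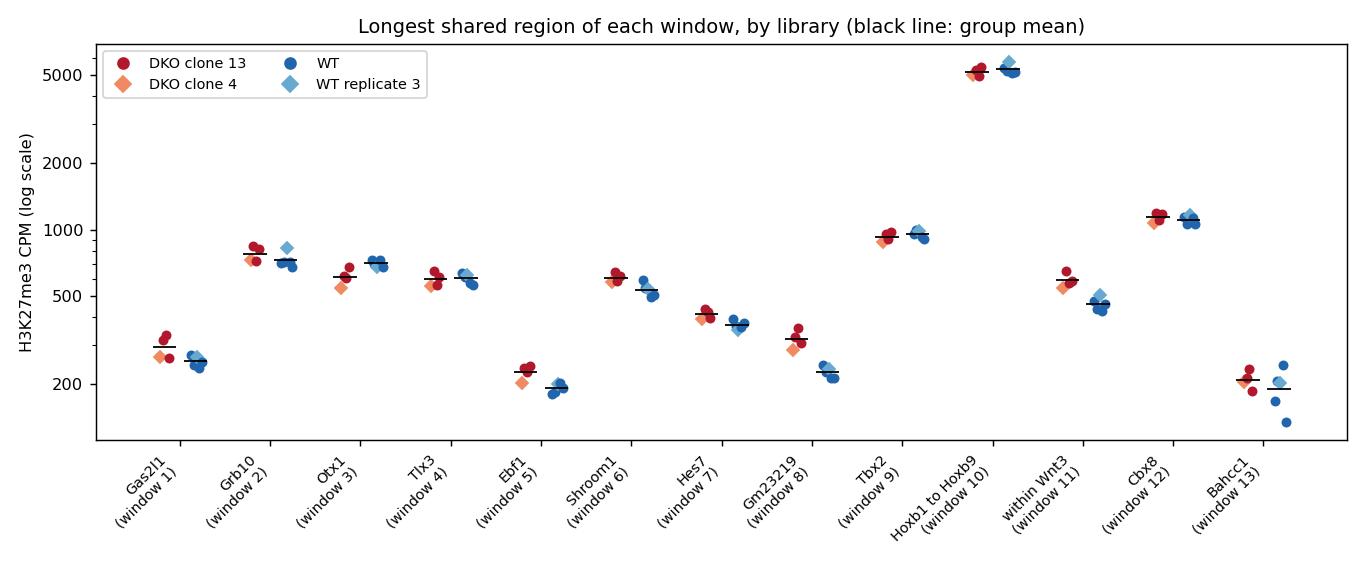
H3K27me3 CPM (y axis, log scale) in every library for the longest shared region of each window, in window order (x axis), with black lines at the group means. Group means run from 209 and 191 CPM at Bahcc1 to 5175 and 5319 CPM at the Hoxb domain in DKO and WT. All DKO libraries lie above all WT libraries at Ebf1, Hes7, Gm23219 and within Wnt3 and below them at Otx1, and the groups overlap at the other 8.

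The largest rises clustered at Etv4, an ETS transcription factor gene that FGF and ERK signalling activates. The region over its promoter (chr11:101779762-101785058) had 78.0, 105, 72.7 and 110 CPM in DKO replicates 1 to 4, against 45.3, 34.7, 60.4, 26.2 and 26.6 CPM in WT replicates 1 to 5. The groups did not overlap, with WT replicate 3 the highest WT library and the Old and New WT libraries the lowest. The log2 fold change was 1.27 ± 0.12 (adjusted p = 3.07e-18). Total H3 there was 116 and 106 CPM in DKO, against 55.3 and 61.3 CPM in WT (log2 fold change 0.91 ± 0.21, adjusted p = 0.0878). A pair of regions beside it, at chr11:101785568-101789710 and, within the gene, chr11:101772927-101776077, rose by 1.15 ± 0.13 (adjusted p = 2.02e-13) and 0.97 ± 0.15 (adjusted p = 6.17e-07). All 3 calls held without each library in turn.

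Another 5 smaller regions made up the rest of the 8 largest rises. Those at Gm27511, a predicted gene, rose by 0.88 in each of 2 regions (adjusted p = 7.52e-10 and 0.000666). The longer, at chr11:60091272-60098227, averaged 79.7 ± 8.63 CPM in DKO and 43.7 ± 6.49 CPM in WT (SD, n = 4 and 5). A region within Cacng4 rose by 0.88 (adjusted p = 0.0304), a call lost without any 1 of 4 libraries. A pair of regions outside genes, at chr11:50455286-50456823 and chr11:102093676-102094879, rose by 0.89 and 0.96 (adjusted p = 0.00113 and 0.0026), and the call of the second was lost without DKO replicate 4.

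In all, 5 regions fell. The strongest fall was in a 462 bp region within Gm36876 (chr11:109011605-109012066), a predicted gene. It had 30.9, 25.5, 23.6 and 26.1 CPM in DKO replicates 1 to 4, against 70.9, 51.0, 44.3, 54.6 and 53.6 CPM in WT replicates 1 to 5, with no overlap. The region fell by 1.06 on the log2 scale (SE 0.14, adjusted p = 2.61e-10). Notum (chr11:120658995-120663129), which encodes a secreted enzyme that inactivates Wnt proteins, had 78.0, 76.4, 83.7 and 108 CPM in DKO replicates 1 to 4, against 115, 137, 125, 133 and 108 CPM in WT replicates 1 to 5. Notum fell by 0.50 (adjusted p = 0.000116), and its groups met at DKO replicate 4 and WT replicate 5. Unc45bos (chr11:82927231-82938376), antisense to a myosin chaperone gene, fell by 0.36 (adjusted p = 0.000778).

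The other two falls were smaller. Ppp1r9b (chr11:94991006-94993096), the gene of the synaptic scaffold spinophilin, fell by 0.32 (adjusted p = 0.033), and Otx1 (chr11:21989117-22009401), a forebrain homeobox gene, fell by 0.20 (adjusted p = 0.0329). Otx1 had 546, 618, 604 and 677 CPM in DKO replicates 1 to 4, against 728, 701, 680, 728 and 678 CPM in WT replicates 1 to 5, so that every DKO library lay below every WT library. Its total H3 was 292 and 271 CPM in DKO, against 202 and 218 CPM in WT. The falls of Gm36876, Notum and Unc45bos held without each library in turn, and those of Ppp1r9b and Otx1 did not. With library totals neither Ppp1r9b nor Otx1 was called.

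The regions at listed genes of chromosome 11 are read against all its tested shared regions, of which 17.3% rose, 90.2% had values above 0 and the median was 0.28. The lists are small, and they were not tested against each other or matched for length. The Hoxb regions and those at the other homeobox genes except Dlx3 were 10 kb or longer. Regions of that length had a median of 0.16 on chromosome 11 and -0.20 over the other shared regions. The Hoxb list took 2 regions, neither called, with a median of -0.03, and Hoxb13 (chr11:96164214-96209245) alone stood at -0.03, or 0.049 with library totals. Of 7 regions at other homeobox genes, 0 rose and 1 fell, Otx1, with a median of -0.01 and a value of 0.09 at Meis1, a cofactor of Hox proteins. Of 19 regions at other lineage transcription factors, 2 rose, with a median of 0.12. They were Foxj1, the regulator of motile cilia (0.44, adjusted p = 0.00156), and Hlf, a leucine zipper factor of blood stem cells and liver (0.27, adjusted p = 0.0439). Sox9, a chondrocyte and testis regulator, had 378 ± 15.9 CPM in DKO and 367 ± 19.8 CPM in WT, a log2 fold change of 0.04, or -0.010 with TMM off chromosomes 6 and 11.

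Of 11 regions at secreted signals and antagonists, 3 rose and the median was 0.20. They were 3 of the 4 Wnt genes in the list. Wnt9b, which induces kidney tubules, averaged 209 ± 18.3 CPM in DKO and 154 ± 16.8 CPM in WT (SD, n = 4 and 5, log2 fold change 0.44 ± 0.08, adjusted p = 5.70e-05). Wnt9a rose by 0.31 (adjusted p = 0.00738) and the promoter region of Wnt3 by 0.29 (adjusted p = 0.00837). The fourth, Wnt3a, averaged 355 ± 42.4 CPM in DKO and 358 ± 19.2 CPM in WT (log2 fold change -0.01, or 0.058 with library totals, adjusted p = 0.924 in the main comparison). It stood at -0.21 against the rest of the chromosome (adjusted p = 0.0294), a call lost without DKO replicate 3, WT replicate 2 or WT replicate 4. Of 13 regions at receptors and signal transducers, 1 rose and the median was 0.19. It was Socs3, an inhibitor of the LIF and JAK-STAT pathway, with 27.2, 41.3, 34.3 and 36.8 CPM in DKO replicates 1 to 4, against 14.9, 29.1, 22.1, 19.9 and 14.8 CPM in WT replicates 1 to 5. The groups overlapped through DKO replicate 1 and WT replicate 2, and the log2 fold change was 0.83 ± 0.16 (adjusted p = 7.59e-05).

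Of 16 regions at channels and transporters, 3 rose, close to the share over the chromosome, and all 16 had values above 0, with a median of 0.26. They were Slc22a4, an organic cation transporter (0.40, adjusted p = 0.0135), Kcnj12, an inward rectifier potassium channel (0.30, adjusted p = 0.035), and Cacng4, an auxiliary subunit of AMPA receptors (0.28, adjusted p = 0.0189). Both regions at keratin genes rose, Krt14 by 0.52 (adjusted p = 0.0301) and Krt19 by 0.46 (adjusted p = 0.0401). Of 5 regions at Polycomb and chromatin genes none was called, with a median of 0.28 and a value of 0.28 at Cbx2 (adjusted p = 0.101). Neither of 2 regions at cell cycle genes was called, with a median of 0.33. Total H3 medians were above 0 in every list, between 0.14 and 0.43. Among the called list genes, Foxj1, Wnt9b and Socs3 kept their calls without each library in turn.

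Against the rest of the chromosome, 45 regions stood higher and 25 lower, 3.18% and 1.77% of those tested. The background was 2.7% higher and 0.871% lower, and over the shared regions outside chromosomes 6, 11 and M it was 2.86% and 1.37%. The share standing higher was thus close to the background. The share standing lower was above it, and nearer to the 1.37% of the other shared regions than to 0.871%. The rest of the chromosome here was the summed count of its other shared regions, in which strong regions weigh most. Values in this test were therefore not centred on 0. Their median was 0.09 on chromosome 11, with 67.4% above 0, and 0.09 over the other shared regions. The 45 had a median length of 3816 bp, and 32 of them were under 5 kb. The 25 had a median length of 9836 bp, 12 of them were of 10 kb or more, and 23 overlapped a promoter row. Long regions stood lower elsewhere too. Those 12 were among 40 regions of that length on chromosome 11, and 124 of the 416 other shared regions of that length were called lower. Total H3 medians were 0.34 over the first and 0.31 over the second, and the choice of both sets by H3K27me3 fixed how they differ in that mark. The 45 and the 25 were each spread over 10 of the 13 windows, and window 10 held 7 of the lower ones.

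The higher regions included the 3 at Etv4, at 1.09, 0.96 and 0.79 relative to the chromosome (adjusted p = 5.09e-14, 4.48e-10 and 7.82e-05), and Socs3 at 0.64 (adjusted p = 0.00322). Another 3 are named after their values were seen. Hap1, which encodes a partner of huntingtin, stood at 0.67 (adjusted p = 2.03e-05), Msl1, a scaffold of a histone acetyltransferase complex, at 0.58 (adjusted p = 0.000122), and Rai1, a transcriptional regulator, at 0.47 (adjusted p = 7.04e-06). The lower regions included both Hoxb regions and several long domains at developmental genes. Hoxb13 stood at -0.22 (adjusted p = 0.00171), Neurod2 at -0.20 (adjusted p = 0.00542), Otx1 at -0.40 (adjusted p = 1.76e-08) and Crhr1, a stress hormone receptor gene, at -0.30 (adjusted p = 0.00248). Neurod2 lost its call without DKO replicate 3.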

How the data were processed

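Per the submitters' processing notes, the authors used Bowtie2, MACS2, bedtools and featureCounts with build mm10, and per the file headers featureCounts was version 2.0.3. The deposited tables hold raw counts of reads per union region and per promoter row for 13 libraries, and a deposited list names the shared regions. The column names carry a b6 tag, and no source used here says if reads of both alleles were counted. The regions and gene lists were chosen with earlier results of these data known.

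Regions were summed by midpoint into windows of 10 Mb, or 5 Mb as an alternative. Counts were tested across all 57909 regions or all windows with edgeR 4.0.16 (R 4.3.3, TMM, filterByExpr with a minimum count of 10, quasi-likelihood test, Benjamini-Hochberg adjustment at 0.05). Tests against the rest of the chromosome used the summed count of the other shared regions or windows of each chromosome as the offset. Tests beyond total H3 used the interaction of genotype and antibody in 1 fit. H3K27me3 fits held 4 DKO and 5 WT libraries, and total H3 fits 2 and 2. The H3K27me3 region fit, the window fit and the window fit against the rest of the chromosome were run on simulated counts. The total H3 fits and the fits of both antibodies together were not. Libraries of 1 group differed by more than sampling noise (chi-square per degree of freedom of 1.06 to 1.94).

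Named regions were the longest of each window, the 8 largest called rises and 4 largest called falls, the first and last called, and regions at promoters of listed genes. Depth limits single regions more than windows, and total H3, with 2 libraries a group, more than H3K27me3. DESeq2 1.42.0, other scalings, filters, window sizes and sample sets were tried as alternatives. RefSeq promoters came from GRCm38.p6. The region behind 1 call is counted but not reported by name here.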

Additional observations from a re-analysis of the deposited data

Results flagged for a closer look

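In 130 groups of 4 or 5 libraries tested for 1 library far from the others, 13 were marked, and chance marks about 1 in 20 groups. Over the whole chromosome, in percent of the counts on other chromosomes, DKO replicate 1 (clone 4) was far below the other DKO libraries at 11.9%, and WT replicate 3 far above the other WT libraries at 11.6%. In window 10, DKO replicate 1 stood far below the other DKO libraries at 2.64%, and WT replicate 3 far above the other WT libraries at 2.73%. WT replicate 3 also stood far above the other WT libraries in window 1 at 0.478%, in window 7 at 0.918% and in window 12 at 1.62%.

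Among single regions, DKO replicate 1 was far below the other DKO libraries at Gm27511, with 18.3 CPM, and at Cbx2, with 72.3 CPM. WT replicate 3 was far above the other WT libraries at Grb10, with 825 CPM. WT replicate 1 was far above them at Unc45bos, with 303 CPM, and at Cacng4, with 217 CPM. WT replicate 5 was far above them at Krt19, with 34.0 CPM. What sets these libraries apart was not tested.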

How the results depend on the processing

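The number of regions called higher in DKO was 245 in the main comparison. It was 446 with library totals, 148 within the Old and New libraries, 134 with WT of the rmce stem only and 6 within the libraries named neither Old nor New, and it ranged from 88 to 399 with 1 library left out. The number called lower, 5, was 3 with library totals, with DESeq2 and with WT of the rmce stem only, 2 within either set of libraries, and 3 to 5 with 1 library left out. Total H3 called 1 region higher, and 0 to 3 with 1 library left out. Windows called higher numbered 11, 13 with library totals and 9 with TMM off chromosomes 6 and 11. They numbered 20 of 25 with 5 Mb windows, 0 within the libraries named neither Old nor New, and 6 to 13 with 1 library left out. Total H3 windows ranged from 9 to 13. Departures of H3K27me3 from the rest of the chromosome were called in 6 windows, in 3 with WT of the rmce stem only and without the strongest 1% of regions, in 0 within the libraries named neither Old nor New, and in 3 to 6 with 1 library left out. Windows called beyond total H3 ranged from 0 to 1.

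The following were chosen after seeing the data. Regions called against the rest of the chromosome numbered 45 higher and 25 lower, 5 and 7 within the libraries named neither Old nor New, 9 and 6 within the Old and New libraries, and 24 to 49 and 18 to 26 with 1 library left out. Clone 13 alone called 1 region beyond total H3, and none was called with clone 4 included. The difference in share, 1.73 percentage points for H3K27me3 and 1.79 for total H3, was 2.52 and 2.93 with chromosomes 6, 11 and M out of the denominator, and 2.30 for total H3 with chromosome 6 alone out, an alternative fixed earlier. Clone 4 was part of the H3K27me3 differences only.

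Replicates with the same number did not deviate together, with correlations of -0.014, -0.0289, 0.0124 and 0.0694 over 39373 regions, so the numbers do not pair the libraries. With the replicate number as a block, 139 regions were called higher, 26 stood higher against the rest of the chromosome and 12 total H3 windows were called.

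Some small values changed sign. With library totals the log2 fold change was 0.0339 at the Hoxb domain, 0.0487 at Hoxb13, 0.0062 at Lhx1, 0.0566 at Tlx3, 0.0337 at Tbx2 and 0.0578 at Wnt3a. Within the Old and New libraries it was 0.0309 at the Hoxb domain, 0.0883 at Hoxb13, 0.0530 at Tlx3, 0.0441 at Tbx2 and 0.0059 at Wnt3a. With WT of the rmce stem only it was 0.0062 at Hoxb13, 0.0066 at Tlx3 and 0.0312 at Wnt3a. With 1 library left out, Hoxb13 ranged from -0.0567 to 0.0078, Tlx3 from -0.0577 to 0.0144 and Wnt3a from -0.0778 to 0.0566. Meis1 was at -0.0691 within the libraries named neither Old nor New, and with TMM off chromosomes 6 and 11 Cbx8 was at -0.0177 and Sox9 at -0.0104. Causes were not tested.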
